A study of Homo sapiens with 8 samples.

Results

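The genes described here are 9 neighbours of the long noncoding RNA gene AC091182.1, called lncMB2, on the short arm of chromosome 8 (8p). They were chosen by name, as ZNF703, ADGRA2, ERLIN2, PLPBP, BRF2, RAB11FIP1, LSM1, ASH2L and LINC01605, and each was matched through GENCODE to 1 of the 60668 gene rows of the count files. The name 8p coding neighbours holds for 8 of the 9, since GENCODE 29 types LINC01605 as a lincRNA. The cells were D283-OMO, the D283 Med medulloblastoma line transduced with a lentivirus that carries a FLAG-tagged, doxycycline-inducible OMOMYC, a dominant-negative fragment of MYC, and selected with hygromycin. Both groups carry the transgene. OMO stands for the untreated cells (4 libraries) and OMO+DOX for those given 0.25 µg/mL doxycycline (DOX) for 72 h (4 libraries), which the labels call MYC-inhibited. No library came from DOX-treated cells without the transgene, so an effect of DOX itself and one of OMOMYC cannot be told apart here.

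This stretch of 8p is known from breast cancer, where it is often gained or amplified, with ZNF703 and its neighbours as candidate driver genes. The genes have unrelated roles: ZNF703, BRF2, ASH2L and LSM1 act in transcription, chromatin or RNA decay, while ADGRA2, ERLIN2, RAB11FIP1 and PLPBP act at membranes or in metabolism. MYC is a transcription factor that binds DNA together with MAX, and OMOMYC competes with it for both. The study asked which RNAs depend on MYC in these cells, and it measured ZNF703 and ADGRA2 after silencing lncMB2 because they are the coding genes that it regarded as proximal. The libraries analysed here hold no lncMB2 silencing.

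RNA levels are given in CPM, which are RSEM expected counts per 1000000 of a library after TMM scaling in edgeR. Library totals lay between 38390649 and 54020451 counts. A log2 fold change (log2FC) is DOX over untreated. A gene was taken as higher or lower at an adjusted p below 0.05, and as differentially expressed at an adjusted p below 0.001 with an absolute log2FC above 2. Reads at MYC itself stood at 939 ± 75.6 CPM untreated and 1123 ± 56.8 CPM with DOX (SD, n = 4 each), where endogenous MYC and the OMOMYC transgene cannot be told apart. Known MYC targets were lower with DOX: CAD, an enzyme of pyrimidine synthesis, stood at 71.5% and NCL, the nucleolar protein nucleolin, at 73.7% of the untreated level with DOX. Of the 7 markers of group 3 medulloblastoma, all were expressed, and their summed level was 2210 to 2420 CPM in untreated and 721 to 740 CPM in DOX-treated libraries. EYS, of this list, went the other way, from a mean of 14.3 to 16.7 CPM with DOX. Markers of SHH medulloblastoma summed to at least 15.7 CPM untreated and at most 8.17 CPM with DOX, and those of WNT medulloblastoma to 12.4 to 18.5 and 23.1 to 26.3 CPM. The SHH sum was mostly GLI1, which went from a mean of 14.96 to 4.99 CPM, while SFRP1 rose from 0.255 to 2.01 CPM. The leukocyte list summed to 0.142 to 0.252 CPM untreated and 0.352 to 0.626 CPM with DOX, and the astrocyte list to at most 0.775 CPM in any library. The fibroblast list summed to 20.8 to 24.9 CPM, nearly all of it COL1A1. The part of these lists in the results was not tested. Untreated replicate 3 stood somewhat apart: across genes it correlated with its group at a mean r of 0.993, against 0.9958 to 0.9965 for replicates 1, 2 and 4, and it held the lowest or highest untreated value for 8 of the 9 genes.

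All 9 genes were detected. With DOX 6 of them fell, none rose and 2 did not pass the test, while LINC01605 was too low for the test. The falls were graded, from ZNF703, at 34.2% of the untreated level, through ADGRA2, at 49.9%, to ASH2L, at 85.2%. In the whole data set 38.1% of the 15222 genes tested were lower and 38.5% higher by the same edgeR quasi-likelihood test. None of the 8 genes tested reached the threshold for differential expression, which 7.12% of all genes passed in edgeR, and none of them did in the Wald test of DESeq2. Without adjustment, 6 of the 8 genes tested had a p below 0.05 on the lower side and 0 on the higher side in edgeR, as in DESeq2. The median log2FC was -0.36 over these 8 genes and 0.01 over all genes tested. Fewer cells expressing a gene and less RNA per cell cannot be told apart in such bulk libraries.

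**Figure D1:**
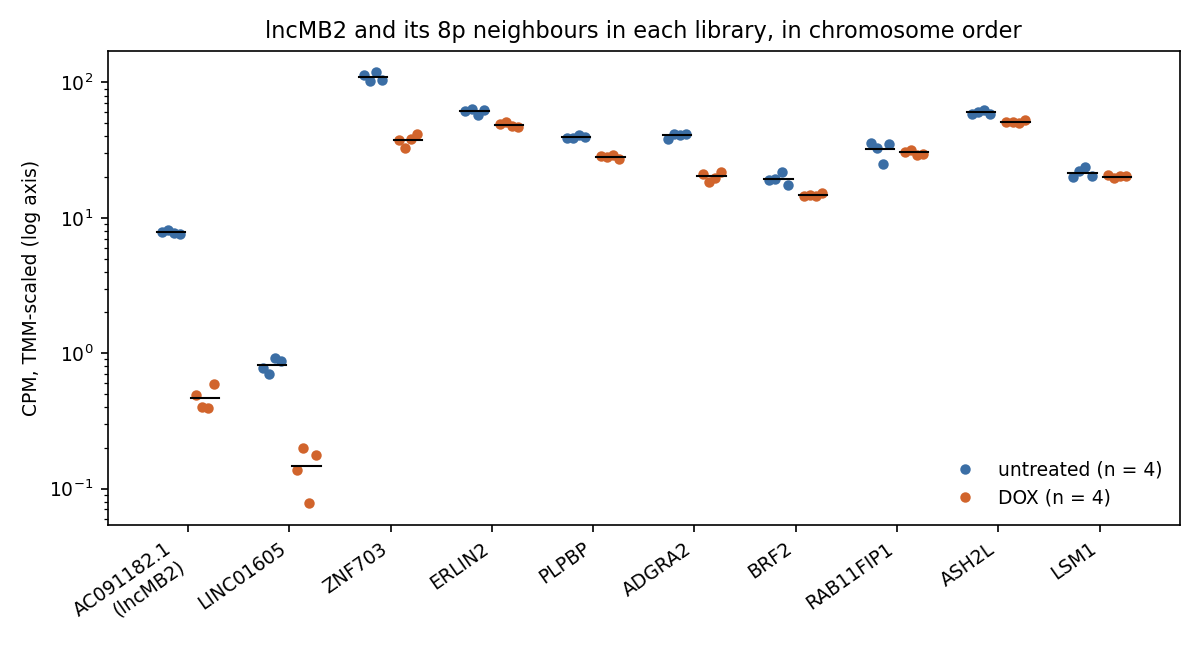
Level of lncMB2 and of its 9 neighbours in CPM (log axis) in 4 untreated (blue) and 4 DOX-treated (orange) libraries, in chromosome order, with a black line at each group's mean. The groups are apart for every gene except RAB11FIP1 and LSM1, and the gap is largest for lncMB2, LINC01605, ZNF703 and ADGRA2. The study picked lncMB2 partly for its fall in these libraries.

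lncMB2 (ENSG00000253123.4) lies on the minus strand of chromosome 8 of GRCh38, from 37326575 to 37331984. It stood at 7.82, 8.13, 7.77 and 7.60 CPM in untreated replicates 1 to 4 and at 0.493, 0.399, 0.391 and 0.594 CPM in the DOX-treated ones. The study picked lncMB2 partly for its strong fall in these same libraries, so that fall is not a separate result. lncMB2 also passed the filter on low counts only through the untreated libraries and could be found only as a fall. All 9 neighbours lie on the same side of lncMB2, toward higher coordinates. The nearest is LINC01605 (ENSG00000253161.5, minus strand, 37421341 to 37554183), a long intergenic noncoding RNA gene that begins 89357 bp away. LINC01605 gave 0.775, 0.697, 0.915 and 0.874 CPM in untreated replicates 1 to 4, and 0.138, 0.199, 0.0782 and 0.176 CPM with DOX. These values rest on 36 to 45 counts per untreated library and 4 to 8 per DOX-treated library, above the 3 counts taken as the detection floor. The groups did not overlap, and the mean with DOX was 18.1% of the untreated one. LINC01605 did not exceed 1 CPM in 4 libraries and was therefore not among the genes tested. When all genes with a count were tested instead, its log2FC was -2.50 with a standard error of 0.29 (edgeR, quasi-likelihood, adjusted p = 1.85e-08), which passes the threshold for differential expression.

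ZNF703 (ENSG00000183779.7) is the first coding gene after lncMB2 on this side among the 9, on the plus strand from 37695751 to 37700021, which puts its start 363767 bp from lncMB2. It encodes a zinc finger protein that works as a transcriptional corepressor and is an oncogene of luminal breast cancer. Untreated replicates 1 to 4 stood at 114, 103, 119 and 104 CPM. The DOX-treated ones stood at 37.9, 33.0, 37.98 and 41.7 CPM, and no untreated library came near the highest of them. The means were 109.9 ± 7.59 and 37.6 ± 3.59 CPM (SD, n = 4 each), and the log2FC was -1.55 with a standard error of 0.07 (edgeR, quasi-likelihood, Benjamini-Hochberg adjusted p = 3.50e-09). A fall at least this deep occurred in 743 of all genes tested, or 4.88%.

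ADGRA2 (ENSG00000020181.18, plus strand, 37784191 to 37844896), also known as GPR124, is an adhesion G protein-coupled receptor that works with RECK as a coactivator of WNT7 signals and is needed for the growth of blood vessels into the brain. Its level in untreated replicates 1 to 4 was 38.4, 41.7, 40.8 and 41.9 CPM. With DOX the replicates gave 21.1, 18.4, 19.8 and 21.97 CPM, about even with each other and all below every untreated library. The log2FC was -1.003 with a standard error of 0.06 (edgeR adjusted p = 2.47e-08). Of all genes tested, 9.8% fell by as much or more. Markers of endothelium, a cell type that uses ADGRA2, summed to 2.91 to 3.67 CPM in untreated and 2.59 to 3.5 CPM in DOX-treated libraries, with genes of the list in opposite directions. VWF went from 3.26 to 1.24 CPM, while CDH5 was at 0 counts in all untreated libraries and at 1.85 CPM with DOX, and their part in the result was not tested.

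Of the genes placed between and beside these, ERLIN2 (ENSG00000147475.17, plus strand, 37736601 to 37759101) encodes a protein of the endoplasmic reticulum that takes part in the degradation of IP3 receptors. It gave 62.0, 63.9, 57.3 and 63.0 CPM in untreated and 49.6, 51.0, 47.9 and 46.7 CPM in DOX-treated replicates 1 to 4. The groups were apart, and the log2FC was -0.33 with a standard error of 0.05 (edgeR adjusted p = 6.88e-05). PLPBP (ENSG00000147471.12, plus strand, 37762593 to 37779767) binds pyridoxal phosphate, the active form of vitamin B6, and keeps its level in balance. Its untreated replicates gave 39.1, 38.6, 40.9 and 39.6 CPM and its DOX-treated ones 28.8, 27.9, 29.1 and 27.4 CPM. PLPBP varied least of the 9 genes among untreated libraries, with a coefficient of variation of 2.56%, and its log2FC was -0.48 with a standard error of 0.04 (edgeR adjusted p = 9.33e-07). ZNF703, on one side of this pair, and ADGRA2, on the other, thus fell more than both genes between them.

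BRF2 (ENSG00000104221.13, minus strand, 37843268 to 37849904) encodes a subunit of the TFIIIB factor that recruits RNA polymerase III to promoters of the U6 type. It gave 19.1, 19.3, 21.9 and 17.5 CPM in untreated and 14.5, 14.8, 14.6 and 15.3 CPM in DOX-treated replicates 1 to 4. BRF2 fell by 0.39 on the log2 scale with a standard error of 0.07 (edgeR adjusted p = 0.000213). The ends of ADGRA2 and BRF2 overlap on opposite strands by 1629 exonic bases, which are 23.1% of the exonic bases of ADGRA2 and 59.0% of those of BRF2. The library kit marks strand, but whether counting used it is not given in the sources used here. Neither gene had a whole count in any library, and their fractions add to a whole count in each, within rounding. In untreated replicate 2, for example, ADGRA2 had 2155.52 counts and BRF2 had 995.48. Reads of the overlap were thus divided between these genes although they lie on opposite strands. The part of shared reads in the values of ADGRA2 and BRF2 was not tested.

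ASH2L (ENSG00000129691.16, plus strand, 38105242 to 38144076) is a core subunit of the COMPASS complexes, which methylate lysine 4 of histone H3. It stood at 58.6, 60.4, 62.1 and 58.7 CPM in untreated and at 50.8, 51.3, 49.9 and 52.3 CPM in DOX-treated replicates 1 to 4. The groups did not overlap, although ASH2L fell least of the 6 genes, with a log2FC of -0.23 and a standard error of 0.04 (edgeR adjusted p = 0.000295). Every library with DOX lay below every untreated one in all 6 genes that fell, as in 35.4% of all genes tested.

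RAB11FIP1 and LSM1 did not pass the test. RAB11FIP1 (ENSG00000156675.16, minus strand, 37858618 to 37899467), an effector of RAB11 that guides cargo through recycling endosomes, gave 35.5, 32.6, 25.2 and 35.3 CPM in untreated and 30.9, 31.7, 29.3 and 29.6 CPM in DOX-treated replicates 1 to 4. Untreated replicate 3 was below every DOX-treated library and the other untreated replicates were above all of them. The log2FC was -0.08, with a 95% interval from -0.29 to 0.12 (edgeR adjusted p = 0.440). Without untreated replicate 3 the log2FC was -0.19 with a standard error of 0.05 (edgeR adjusted p = 0.00311), which passes the test and makes 7 genes lower. Of the exonic bases of RAB11FIP1, 24.8% are also exonic in AC130304.1, a locus on the other strand with 171 to 295 counts per library. The fractions of their counts add to a whole count in each library as well. LSM1 (ENSG00000175324.10, minus strand, 38163321 to 38176730), a subunit of the cytoplasmic LSM1-7 ring that promotes removal of the mRNA cap, gave 20.0, 22.1, 23.9 and 20.4 CPM in untreated and 20.6, 19.5, 20.3 and 20.2 CPM in DOX-treated replicates 1 to 4. The groups of LSM1 overlapped, and the log2FC was -0.10, with a 95% interval from -0.23 to 0.04 (edgeR adjusted p = 0.161). Of the exonic bases of LSM1, 11.7% are also exonic in BAG4 on the other strand. A further locus on that strand, AC084024.3, covers 26.7% and had at most 2.07 counts. The part of shared reads in the values of LSM1 and BAG4 was not tested. With library size in place of TMM scaling, which moved the median log2FC of all genes to 0.14, the log2FC of RAB11FIP1 was 0.04 and that of LSM1 was 0.03, neither past the test. Under the same setting the log2FC was -0.21 for ERLIN2 (edgeR adjusted p = 0.00428) and -0.105 for ASH2L (edgeR adjusted p = 0.0276), both still lower but smaller by over 1.5 times.

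Levels of different genes were compared per kilobase of annotated exon, which understates a gene whose long annotated ends are little used. ZNF703 was the highest of the 9 in untreated cells, at 32.8 ± 2.27 CPM per kilobase (SD, n = 4), clear of the next, LSM1, at 12.8 ± 1.05. PLPBP at 11.5, ASH2L at 10.1, BRF2 at 7.04, ERLIN2 at 6.54, ADGRA2 at 5.77, RAB11FIP1 at 3.35 and LINC01605 at 0.536 CPM per kilobase followed. The libraries of LSM1 and PLPBP overlapped, as did those of BRF2 and ERLIN2, and all other neighbours in this order were apart. With DOX the level of ZNF703 was 11.2 ± 1.07 CPM per kilobase (SD, n = 4), which overlapped with LSM1 at 11.9 ± 0.273, so that ZNF703 no longer stood apart at the top. ADGRA2 was then at 2.88 CPM per kilobase and overlapped with RAB11FIP1 at 3.16.

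Whether neighbouring genes fell by different amounts was examined with the log2 ratio of each adjacent pair of these genes within a library, a value that does not depend on the scaling of libraries. From lncMB2 to LSM1 there are 9 such pairs. In 5 of them the untreated and DOX-treated ratios did not overlap (p = 0.0286 from two-sided exact permutation, and no smaller p is possible with 4 libraries against 4), and over the 9 pairs the Benjamini-Hochberg adjusted value of this p was 0.0515. None of the 9 pairs therefore passed 0.05 after adjustment. The ratio of ZNF703 to ERLIN2 changed by -1.21 on the log2 scale (standard error 0.13), that of PLPBP to ADGRA2, which lie 4423 bp apart, by 0.52 (standard error 0.07) and that of ADGRA2 to BRF2 by -0.62 (standard error 0.09). ADGRA2 and BRF2 share 1629 exonic bases, so their levels are not separate measurements, and the part of shared reads in this ratio was not tested. The ratio of lncMB2 to LINC01605 changed by -1.54 (standard error 0.29) and that of LINC01605 to ZNF703 by -0.99 (standard error 0.33), both with few counts of LINC01605. As the study picked lncMB2 partly for its fall in these libraries, the change of its ratio to LINC01605 is not a separate result. ERLIN2 and PLPBP, which lie 3491 bp apart, differed by 0.15 (standard error 0.06, exact permutation p = 0.0571, adjusted 0.0734), and their groups overlapped. The ratios of BRF2 to RAB11FIP1 (exact permutation p = 0.0857), of RAB11FIP1 to ASH2L (exact permutation p = 0.286) and of ASH2L to LSM1 (exact permutation p = 0.0571) overlapped as well.

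The stretch of 8p around these genes was followed through all genes within 2 Mb of lncMB2. Outside the 9 and lncMB2 itself it holds 77 annotated genes, of which 15 passed the filter on low counts. Of these, 5 were lower with DOX, 6 were higher and 4 did not pass the test, near the 38.1% lower and 38.5% higher of all genes tested. When a gene had to exceed 1 CPM in over 4 libraries to be tested, 4 were higher and 5 lower. From ZNF703 to LETM2, 15 genes were tested, 8 of them among the genes described above, and 10 were lower, 0 higher and 5 not past the test by edgeR, and neither these 8 nor the other 7 included a gene that was higher at an unadjusted p below 0.05. From FGFR1 to ADAM32, 6 genes were tested, and 5 were higher, 0 lower and 1 not past the test. ADAM32, among these 5, passed the filter on low counts only through the DOX-treated libraries and could be found only as a rise. The end points of these stretches were chosen after the values were seen.

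**Figure D2:**
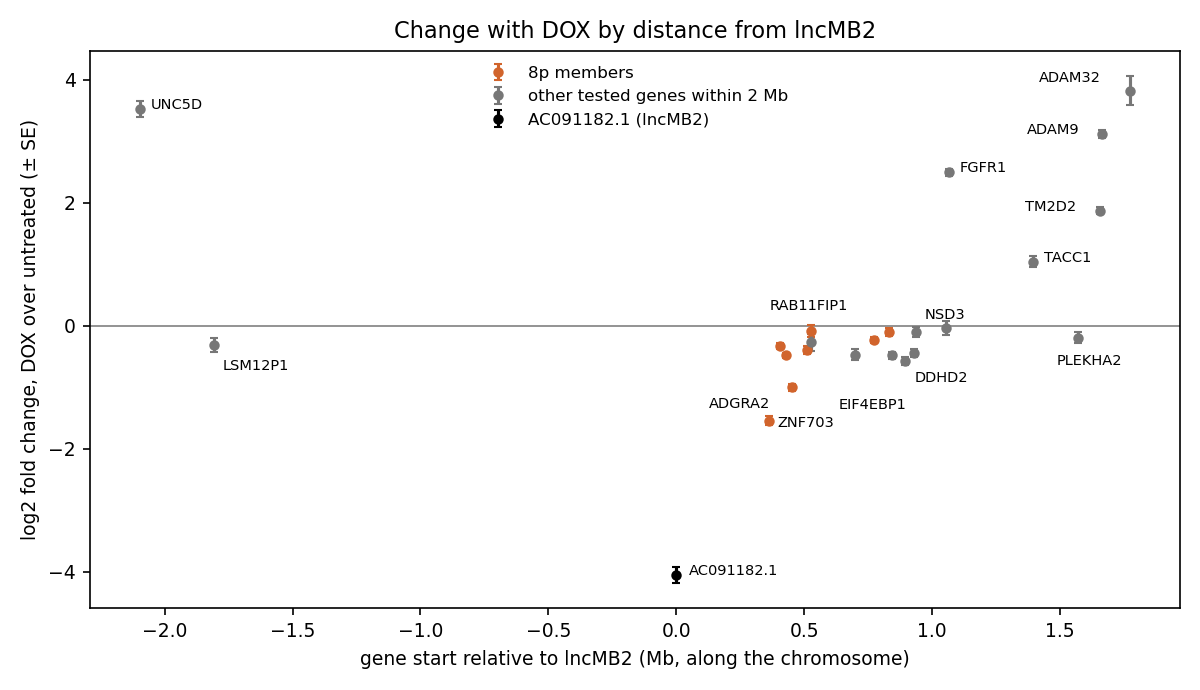
Change of each tested gene within 2 Mb of lncMB2, as the log2FC of DOX over untreated with its standard error, with the position of its start relative to lncMB2 in Mb on the horizontal axis (a gene counts as within 2 Mb by its nearer end). The tested neighbours described here (orange) all lie within 1 Mb and below 0, while FGFR1, TACC1, TM2D2, ADAM9 and ADAM32 lie beyond 1 Mb and above 0.

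Among the genes between, EIF4EBP1, which encodes a repressor of cap-dependent translation and lies between RAB11FIP1 and ASH2L, fell by 0.47 on the log2 scale, with means of 186 ± 20.7 CPM untreated and 135 ± 13.3 CPM with DOX (SD, n = 4 each). Beyond LSM1, BAG4, an inhibitor of death receptor signalling, had a log2FC of -0.48 (standard error 0.06) and DDHD2, a brain triglyceride lipase, one of -0.57 (standard error 0.06). Among the tested genes of the stretch outside the 9, DDHD2 had the deepest fall. PLPP5, a lipid phosphatase, had a log2FC of -0.44 (standard error 0.06). NSD3, a histone H3 lysine 36 methyltransferase, and LETM2, a mitochondrial inner membrane protein, had log2FC of -0.10 and -0.03 and did not pass the test. The spans of DDHD2 and NSD3 overlap on opposite strands, and neither gene had a whole count in any library. The part of shared reads in their values was not tested. The falls of ERLIN2, PLPBP and BRF2 were thus of about the size of those of EIF4EBP1, BAG4 and PLPP5, and those of ZNF703 and ADGRA2 were larger than any of them.

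FGFR1, a receptor of fibroblast growth factors, rose from 20.8 ± 0.418 to 117 ± 7.80 CPM (SD, n = 4 each), with a log2FC of 2.50. TACC1, a centrosome and microtubule protein, rose from 17.6 ± 2.57 to 36.2 ± 1.61 CPM (SD, n = 4 each). ADAM9, a membrane metalloprotease, rose from 45.9 ± 3.13 to 398 ± 15.7 CPM (SD, n = 4 each), with a log2FC of 3.11. Its neighbours TM2D2, a transmembrane protein gene named after its value was seen, and ADAM32 had log2FC of 1.87 and 3.82. On the other side of lncMB2, UNC5D, a receptor of netrins, rose from 0.838 ± 0.171 to 9.69 ± 0.703 CPM (SD, n = 4 each). ADAM32 and UNC5D would not have passed the filter on low counts on their untreated libraries, so genes like them could be found only as rises.

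To place the genes in their pathways, 8 lists of partner genes were used, 79 genes in all, of which 76 were tested. Of these, 35 were higher, 31 lower and 10 not past the test, beside 38.5% higher and 38.1% lower of all genes tested, so that the lists as a whole lay near the background. With library size in place of TMM scaling 39 were higher and 24 lower. The corepressor genes around ZNF703 all moved, 3 higher and 5 lower of 8. TLE3, which encodes a corepressor of the Groucho family, fell with a log2FC of -2.01 (standard error 0.05). TLE4 and TLE1, of the same family as TLE3, rose with log2FC of 3.76 (standard error 0.07) and 1.79 (standard error 0.07). The paralog of ZNF703, ZNF503, named after its values were seen, was low, at 2.59 ± 0.327 CPM in untreated and 4.29 ± 0.356 CPM in DOX-treated cells (SD, n = 4 each).

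Of 8 tested genes of the WNT7 list of ADGRA2, 7 rose, 0 fell and FZD5 did not pass the test, with 0 on the lower side at an unadjusted p below 0.05 in edgeR, and the median log2FC was 0.86. WNT7A passed the filter on low counts only through the DOX-treated libraries and could be found only as a rise, and of the 7 other genes 6 rose, with a median log2FC of 0.60. Setting WNT7A at the bound that its floor gives cannot move the median of 0.86 over all 8, since WNT7A remains the largest rise, so this is no check. RECK, the membrane-anchored partner of ADGRA2 and also named after its values were seen, rose from 11.8 ± 0.650 to 25.5 ± 0.677 CPM (SD, n = 4 each). FZD4, a Frizzled receptor, had a log2FC of 2.82 (standard error 0.07). WNT7A, a ligand, was at 0 counts in all untreated libraries and reached 2.56 ± 0.572 CPM (SD, n = 4) under DOX, which is at least 38.2-fold higher when set against 3 counts in the shallowest untreated library. WNT7B and LEF1 were too low to be tested.

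**Figure D3:**
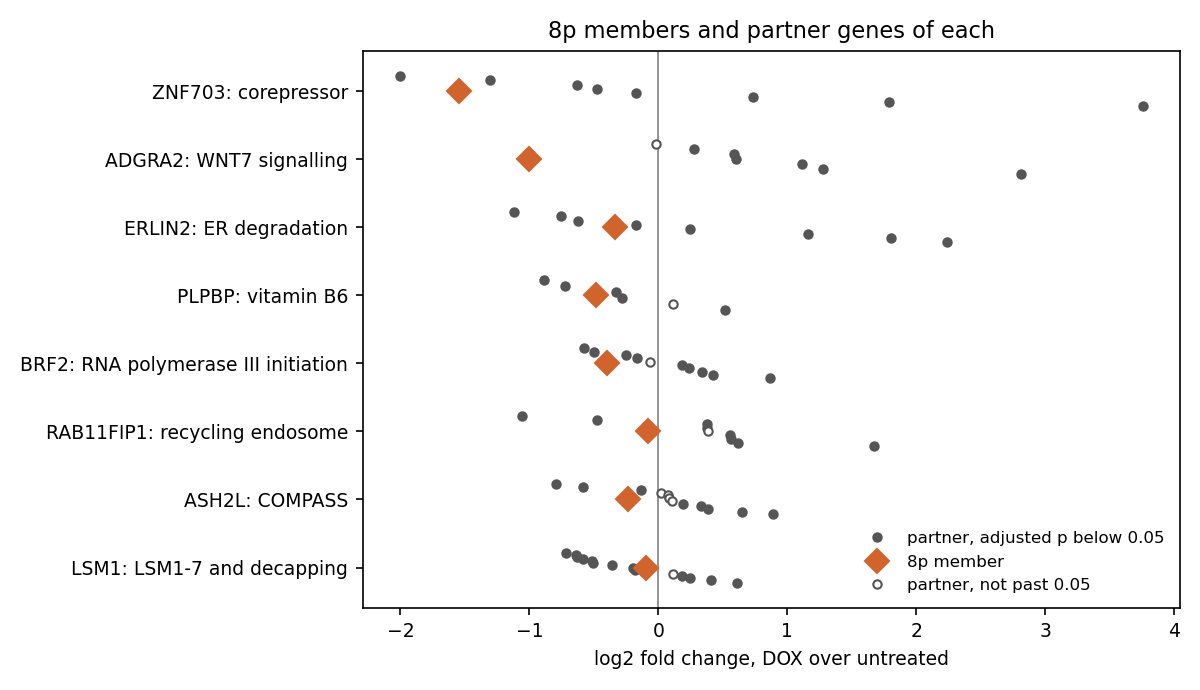
Log2FC of DOX over untreated for each coding gene of the 8p group (orange diamond) and for its tested partner genes (grey, filled where the adjusted p was below 0.05). ADGRA2 lies to the left of all its partners, while the other genes lie within the range of theirs; WNT7A, with no count in untreated cells, is not drawn.

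The endoplasmic reticulum list of ERLIN2 split evenly, 4 higher and 4 lower of 8. ERLIN1, which forms a complex with ERLIN2, had a log2FC of -0.75 (standard error 0.04). Of the IP3 receptors, ITPR3 had a log2FC of -1.12 (standard error 0.09) and ITPR1 and ITPR2 of 2.24 (standard error 0.09) and 1.81 (standard error 0.11). In the list set beside PLPBP, 6 genes of vitamin B6 handling, B6-dependent steps and neighbouring steps, 4 were lower, 1 was higher and 1 did not pass the test. ALDH7A1, of lysine breakdown, whose loss depletes pyridoxal phosphate, had a log2FC of -0.73 (standard error 0.05). PHGDH, at -0.89 (standard error 0.06), is a dehydrogenase of serine synthesis that does not use vitamin B6, and without it 3 of 5 genes were lower.

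Of 10 genes of RNA polymerase III initiation, 5 were higher and 4 lower. BRF1, the counterpart of BRF2 at tRNA promoters, had a log2FC of -0.25 (standard error 0.06) and is named after its value was seen. The deepest fall was that of POU2F1, at -0.57 (standard error 0.13), followed by SNAPC2, at -0.50 (standard error 0.07), and the largest rises those of SNAPC3, at 0.86 (standard error 0.05), and BDP1, at 0.42 (standard error 0.16). The groups of POU2F1 overlapped, as untreated replicate 3, at 76.4 CPM, lay below DOX-treated replicates 1 and 2, at 76.9 and 77.9 CPM. BDP1 stood at 48.7 CPM in untreated replicate 3, against 84.6 to 86.1 CPM in untreated replicates 1, 2 and 4. In the COMPASS list of ASH2L, 5 of 12 genes were higher, 3 lower and 4 not past the test. SETD1B, a catalytic subunit, and WDR5, which sits in the core with ASH2L, had log2FC of -0.79 (standard error 0.06) and -0.59 (standard error 0.05), and KMT2C and KDM6A, of a single type of these complexes, had 0.89 (standard error 0.15) and 0.65 (standard error 0.06). KMT2C stood at 39.7 CPM in untreated replicate 3, against 62.7 to 69.99 CPM in untreated replicates 1, 2 and 4.

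In the decapping list of LSM1, 9 of 15 genes were lower, 4 higher and 2 not past the test. All 6 other subunits of the LSM1-7 ring fell, from LSM3 at a log2FC of -0.36 (standard error 0.06) to LSM5 at -0.72 (standard error 0.07), while LSM1 itself did not pass the test. These 6 also belong to the nuclear ring with LSM8, whose log2FC was 0.41 (standard error 0.07). DCP2, the decapping enzyme, had one of -0.64 (standard error 0.06), and XRN1, the exonuclease that follows it, one of 0.61 (standard error 0.14). XRN1 stood at 26.4 CPM in untreated replicate 3, against 40.9 to 41.5 CPM in untreated replicates 1, 2 and 4. Of the recycling endosome list of RAB11FIP1, 9 genes were tested, 6 were higher and 2 lower. MYO5A, a motor protein, and RAB11FIP5 had log2FC of 1.68 (standard error 0.10) and 0.61 (standard error 0.05), and RAB11FIP4 and RAB11A had -1.06 (standard error 0.06) and -0.48 (standard error 0.04).

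Among the 13006 protein-coding genes tested, those most like ZNF703 were sought by the root mean square difference of log2 CPM over the 8 libraries, after each gene's mean was subtracted. They were B9D1 on chromosome 17, at a difference of 0.056, TYRO3 on chromosome 15, at 0.066, and MMP15 on chromosome 16, at 0.0669. For ADGRA2 they were LPCAT3 on chromosome 12, at 0.0518, CCDC85C on chromosome 14, at 0.0526, and FARSA on chromosome 19, at 0.0558. None of the 6 lies on chromosome 8. As the 8 libraries form 2 groups, this likeness mostly follows the size of the change, and the log2FC of B9D1 was -1.48 and that of LPCAT3 -0.95.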

How the data were processed

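Libraries of polyA+ RNA were made with a stranded kit from 4 untreated and 4 DOX-treated replicates. The authors used Trim Galore for trimming, STAR for alignment (GRCh38, GENCODE release 32) and RSEM for counting. They deposited RSEM expected counts per gene, which are not normalized and in which reads matching several genes are divided. Software versions are not given in the sources used here. From these, counts were rounded, and genes above 1 CPM in 4 or more of the 8 libraries (15222) were tested with edgeR 4.0.16 in R 4.3.3 (TMM, quasi-likelihood test, Benjamini-Hochberg adjustment over all genes tested, no covariates). Standard errors were derived from the log2FC and its quasi-likelihood F statistic. The floor of 3 counts was 0.0579 to 0.0746 CPM and takes account of counting error only. PCR copies were not removed by molecular identifiers. The 95% intervals come from the quasi-likelihood fit and include the spread between replicates. Groups follow the sample titles. The replicates are described as independent biological replicates. GENCODE 29 (GRCh38) gave symbols, positions and exons, and its identifiers match 99.3% of the genes tested. Genes named are the 9 neighbours, lncMB2, genes of the 8p amplicon, the largest changes within 2 Mb and in each partner list, the 3 genes most like ZNF703 and ADGRA2, and MYC targets; some genes that this rule names are not reported here. Genes and lists were chosen with earlier results of these data known. Alternatives were DESeq2 1.42.0 (Wald test or size factors), library size only, other count filters and thresholds, other windows, the replicate number as a block, and each replicate left out. Fits were run on simulated data in which 200 genes were changed, with rises and falls in equal number. In the data 76.6% of genes tested were called, so the simulation could not check the scaling of libraries. Exact permutation tests used scipy 1.17.1. No sequences were printed for these genes.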

Additional observations from a re-analysis of the deposited data

Results flagged for a closer look

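Dixon's test (95% critical value) was applied to each group of 4 libraries, 56 groups in all, for the 9 genes, lncMB2, the other tested genes within 2 Mb, MYC, CAD and NCL, to find a library that stood far from the remaining 3. Chance alone would give 2.8 such groups, and 3 were found, none of them of the 9 genes or lncMB2. EIF4EBP1 stood at 154 CPM in DOX-treated replicate 4, against 128, 130 and 126 CPM in replicates 1 to 3. FGFR1 stood at 106 CPM in DOX-treated replicate 2, against 122, 122 and 120 CPM in the others. TM2D2 stood at 36.9 CPM in DOX-treated replicate 3, against 38.9, 39.0 and 39.0 CPM in the others.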

How the results depend on the processing

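Over the 15 alternatives run, 6 or 7 of the 9 genes were lower and 0 higher. Among fits with 1 replicate left out, the count of 7 came without untreated replicate 3. With no filter on low counts 7 were lower, 1 gene, LINC01605, was differentially expressed, and 9 other genes within 2 Mb were lower in place of 5. Within 1 Mb, 0 other genes were higher in place of 6. Without the scaling of libraries (library size only), the log2FC of RAB11FIP1 was 0.042 and that of LSM1 0.029, a reversal of sign for values that did not pass the test. ZNF703 stayed between -1.60 and -1.42 and ADGRA2 between -1.04 and -0.88 under all alternatives run. The same replicate numbers occur in both groups, but the sources used here do not state that they pair the cultures. Same-numbered libraries deviated together with r from -0.176 to 0.241 (mean 0.0915, against -0.0332 for libraries of different number). Such values cannot decide whether the cultures were paired. With the replicate block, 6 of the 9 genes were lower and ZNF703 had a log2FC of -1.55, and 6 other genes within 2 Mb were lower and 6 higher. Depth limits LINC01605 most.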
